A study of Caenorhabditis elegans with 2 samples.

Results

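The spliceosomal small nuclear RNA (snRNA) genes of Caenorhabditis elegans were taken as all genes that the Ensembl release 115 annotation of assembly ce11 (WBcel235) classes as snRNA on nuclear chromosomes, leaving out 30 sls genes, which encode spliced leader RNAs, and 10 smy genes, which encode SmY RNAs. That left 89 of 129 nuclear snRNA genes, among 46890 nuclear genes of all classes. Each gene was scored by the strongest peak with a summit within 100 bp of it. The annotations used gave no U type, so families were set from the gene sequences, by at least 80% identity over at least 80% of the shorter sequence and the presence of a short signature of each RNA in most members. This gave 23 U6, 14 U1, 19 U2, 5 U4 and 12 U5 genes. The other 16 genes fell in none of the 5 families, so the class name is not borne out by sequence for all 89. Of these 16, 8 lay over exons of protein-coding genes, among them 6 over genes of the cyp-34A cytochrome P450 family, and 2 were partial copies, described where their values are given.

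Chromatin immunoprecipitation with sequencing (ChIP-seq) was done on 2 biological replicates of 1 group, with no contrast between conditions. Both were early embryos aged 1 hour of strain OP368, obtained by egg bleaching. The animals carry wgIs368, an added fosmid copy of tbx-11 with a TY1 EGFP 3xFLAG tag, together with a functional unc-119 gene, in the unc-119(tm4063) background. The pull-down used an antibody against GFP according to the sample description, while the antibody field names tbx-11. Whole embryos were used, so the values average over all cells, and the tagged protein comes from the transgene in addition to whatever the animal's own tbx-11 gives. The peaks of the 2 replicates were called with a shared set of control alignments, and a mock pull-down was not analysed here.

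Spliceosomal snRNAs are short non-coding RNAs that assemble with Sm or LSm proteins into the particles that recognise introns and carry out splicing. U1, U2, U4 and U5 genes are transcribed by RNA polymerase II and U6 genes by RNA polymerase III. All carry a proximal sequence element upstream of the start, which is read by the snRNA activating protein complex, and U6 genes also carry a TATA box and end in a run of T. TBX-11 belongs to the T-box family of DNA-binding proteins, whose binding sites commonly hold the letters GGTGTG.

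The 80 bases before the annotated start are shown first for the U6 genes, because these held the strongest peaks and because genes with the same RNA sequence differed in signal. Sequences are read 5′ to 3′ on the strand of the gene, from the ce11 genome. Capitals mark TATATAA and an element made of AAC, any 9 bases, and GTC, both of which were chosen after the sequences and peaks had been seen. In each case the match nearest to the start is marked. The first 5 genes had a summit in the main list, the conservative thresholded list of both replicates. The next, Y17G9A.85, had one only in the other pooled list. The remaining 6 had no thresholded summit. Their positions are chrIII:10989599-10989678 (plus strand), chrIII:4426956-4427035 (minus), chrIII:5080899-5080978 (minus), chrIII:4414105-4414184 (plus), chrIV:4930874-4930953 (plus), chrIV:4864736-4864815 (minus), chrV:859011-859090 (plus), chrIV:4885650-4885729 (minus), chrIII:9447860-9447939 (minus), chrIII:9449489-9449568 (plus), chrIV:13440654-13440733 (minus) and chrV:4354360-4354439 (plus).
W05B2.8: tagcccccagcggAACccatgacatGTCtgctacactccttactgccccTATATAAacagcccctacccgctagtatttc
C28A5.7: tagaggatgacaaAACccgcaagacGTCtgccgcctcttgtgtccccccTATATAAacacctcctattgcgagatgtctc
F54D8.7: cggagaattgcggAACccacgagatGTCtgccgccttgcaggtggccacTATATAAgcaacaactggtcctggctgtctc
R07E5.16: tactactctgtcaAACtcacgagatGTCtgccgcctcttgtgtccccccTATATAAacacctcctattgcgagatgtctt
Y9C9A.111: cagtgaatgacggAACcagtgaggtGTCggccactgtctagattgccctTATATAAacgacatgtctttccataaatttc
Y17G9A.85: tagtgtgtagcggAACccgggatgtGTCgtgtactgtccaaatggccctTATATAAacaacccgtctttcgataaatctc
K09C6.12: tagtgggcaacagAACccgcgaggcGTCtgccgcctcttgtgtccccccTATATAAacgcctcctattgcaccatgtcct
T08B6.62: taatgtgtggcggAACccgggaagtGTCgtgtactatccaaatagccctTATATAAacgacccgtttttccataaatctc
F54C8.9: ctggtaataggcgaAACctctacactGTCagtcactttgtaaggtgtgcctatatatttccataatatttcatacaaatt
F54C8.10: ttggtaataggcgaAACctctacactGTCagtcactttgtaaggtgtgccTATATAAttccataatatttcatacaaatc
K09B11.13: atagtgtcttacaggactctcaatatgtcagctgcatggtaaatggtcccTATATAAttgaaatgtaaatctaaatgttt
F32D1.12: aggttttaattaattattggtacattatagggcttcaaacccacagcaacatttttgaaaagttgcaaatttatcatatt

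The same stretch is shown for other types of gene, to set U6 promoters beside those of the RNA polymerase II genes. The U1 genes are sup-6 at chrII:12944968-12945047 (minus strand), T08G5.11 at chrV:14028636-14028715 (minus), sup-39 at chrII:6968559-6968638 (minus) and F40G12.14 at chrV:14277494-14277573 (plus), of which the last had a candidate only in the ranked list of the other pooled peaks, at 33.8. The U4 genes are C52E4.8 at chrV:11980038-11980117 (plus) and F10D2.13 at chrV:7142859-7142938 (minus). W07G1.24 at chrII:13942648-13942727 (minus) is a partial U2 copy with a peak in the other pooled list. The U5 gene is F42C5.12 at chrIV:7316652-7316731 (plus). In all of these TATATAA is absent from the window.
sup-6: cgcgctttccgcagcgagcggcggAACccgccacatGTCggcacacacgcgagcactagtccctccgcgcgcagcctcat
T08G5.11: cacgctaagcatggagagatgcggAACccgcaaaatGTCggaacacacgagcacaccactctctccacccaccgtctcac
sup-39: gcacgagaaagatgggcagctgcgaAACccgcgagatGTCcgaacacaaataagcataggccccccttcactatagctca
F40G12.14: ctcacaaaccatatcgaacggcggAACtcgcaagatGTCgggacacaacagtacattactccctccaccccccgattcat
C52E4.8: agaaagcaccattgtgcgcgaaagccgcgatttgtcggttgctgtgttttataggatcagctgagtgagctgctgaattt
F10D2.13: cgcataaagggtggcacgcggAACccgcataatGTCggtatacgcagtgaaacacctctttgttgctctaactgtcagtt
W07G1.24: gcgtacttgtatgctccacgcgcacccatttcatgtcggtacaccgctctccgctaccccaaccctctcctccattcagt
F42C5.12: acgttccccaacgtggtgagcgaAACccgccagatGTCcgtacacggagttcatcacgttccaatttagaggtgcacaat

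In the main list, which held 882 peaks with a median signal of 103.5, 10 of the 89 snRNA genes had a summit within 100 bp (11.2%, Clopper-Pearson 95% interval 5.52 to 19.7). The same held for 0.278% of all 122-bp stretches of the nuclear genome (122 bp being the median length of the genes) and for 2.1% of nuclear genes of any class. The genes with a summit were 5 U6, 4 U1 and 1 U4 gene. In no U2 gene, no U5 gene and none of the 16 genes outside the 5 families was a summit found in that list. Here and below the intervals cover counting error over genes only, copies of a type share their sequence and are not replicates, and the read depth is unknown. Signal is the strength that the authors' peak caller gave each peak, in no stated unit, and no p-value was computed for the members. By the same rule 244 of 612 tRNA genes (39.9%), 59 of 346 snoRNA genes (17.05%) and 6 of 261 miRNA genes (2.30%) had a main-list summit within 100 bp, so the snRNA genes stood below the first pair of classes and above the third.

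**Figure D1:**
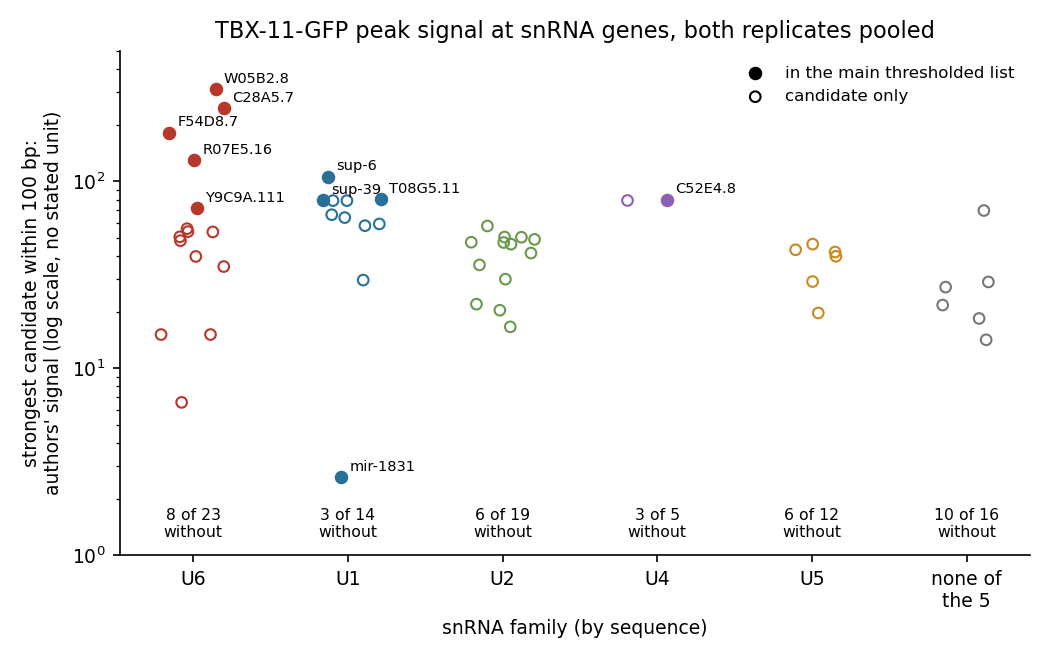
Each point is an snRNA gene with a candidate peak in the conservative ranked list within 100 bp, placed by sequence family (x axis) and the authors' signal (y axis, log scale), and filled points are in the main thresholded list. The 4 strongest points, from 129.8 to 311.2, are U6 genes, while the U2 and U5 families hold open points only, and the numbers below give the genes without a candidate in that list.

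Of the 23 U6 genes, 5 had a main-list summit (21.7%, 7.46 to 43.7), against 5 of the 66 other genes (7.58%, 2.51 to 16.8), a difference of 14.2 percentage points. Against the 50 genes of the U1, U2, U4 and U5 families alone, of which 5 had one (10%, 3.33 to 21.8), the difference was 11.7 points. The intervals of the U6 and the other shares overlap in both comparisons. Taken by family, the U1 share was above that of U6, at 4 of 14 genes (28.6%, 8.39 to 58.1), with mir-1831, nested in sup-39, among the 4. The U4 share was 1 of 5 (20%), and the U2 and U5 shares were 0. A higher share than the other genes as a whole was therefore not particular to U6. Among the thresholded peaks the median signal was 182.3 over the 5 U6 genes and 79.98 over the 5 other genes. Over all candidates of the conservative ranked list the medians were closer, at 53.7 for 15 U6 genes and 46.2 for 38 other genes, and the U1 median of 66.4 over 11 genes was above that of U6.

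W05B2.8 (WBGene00014543, chromosome III, 10989679 to 10989780, plus strand) had the strongest peak of any snRNA gene. Its signal was 192.7 in replicate 1, 144.5 in replicate 2 and 311.2 in the pooled main list, where it ranked 60 of 882. It lies in an intron of dhc-4, a gene named for a dynein heavy chain, on the strand of that gene. C28A5.7 (WBGene00014266, chromosome III, 4426854 to 4426955, minus strand) had 147.7 in replicate 1, 91.9 in replicate 2 and 246.3 in the main list, at rank 106. It lies in an intron of C28A5.6 on the same strand, and the non-coding RNA gene C28A5.9 is annotated over it on the other strand. Both genes were therefore thresholded in each replicate alone and in the pooled data.

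F54D8.7 (WBGene00195000, chromosome III, 5080798 to 5080898, minus strand), an intergenic gene 826 bp from the start of cox-6A, had 113.3 in replicate 1, 69.3 in replicate 2 and 182.3 in the main list, at rank 186. R07E5.16 (WBGene00014484, chromosome III, 4414185 to 4414286, plus strand), in an intron of mpc-1, a gene named for a mitochondrial pyruvate carrier, had 88.8 in replicate 1 and 129.8 in the main list, at rank 312. In replicate 2 it reached 45.9 in the ranked list of candidates, with a score of 654 where thresholded peaks have at least 830, and so missed the thresholded list of that replicate. The score expresses how reproducibly a peak ranked, up to 1000. All 4 of these genes are on chromosome III, where 4 of 7 U6 genes had a main-list summit.

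Y9C9A.111 (WBGene00235247, chromosome IV, 4930954 to 4931055, plus strand), in an intron of Y9C9A.8, was weaker, with candidates of 40.7 in replicate 1 and 34.6 in replicate 2 and a signal of 72.0 in the main list, at rank 765 and with a score of 896. It was thresholded in neither replicate alone. It was the only gene of 13 U6 genes on chromosome IV with a main-list summit. Y17G9A.85 (WBGene00195001, chromosome IV, 4864635 to 4864735, minus strand) had 73.3 in the other pooled list with a score of 907, a candidate of 52.7 in replicate 1 and none within 100 bp in replicate 2 or in the conservative ranked list.

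U6 genes with the same RNA sequence differed in signal. A set of 14 U6 genes has an identical 102-base sequence, and 4 of them had a main-list summit, namely W05B2.8, C28A5.7, R07E5.16 and Y9C9A.111. Another 6 had a candidate only, and 4 had none within 100 bp in the conservative ranked list, so the candidates of this set ran from 6.58 to 311.2. The 101-base sequence of F54D8.7 is shared with Y17G9A.85 and T08B6.62, and T08B6.62 had a candidate of 55.9 with a score of 369. W05B2.8 and C28A5.7, the strongest pair, share all 102 bases of the gene and 42 of the 80 bases before it. K09C6.12, with the same 102 bases and 67 of 80 upstream bases in common with C28A5.7, had a candidate of 50.6 with a score of 217 against 246.3 at C28A5.7. No 50-base word starting in K09C6.12 is found at a single place in the genome, while 42.2% of those starting in C28A5.7 are. Words were read along the plus strand, so they run past the end of K09C6.12 but past the start of C28A5.7, a minus-strand gene. As all 102 bases are shared by 14 genes, these shares describe opposite flanks and cannot be compared with each other. With 200 bp on either side of the gene included, the shares were close, at 73.5% for K09C6.12 and 71.3% for C28A5.7. The part of repeated sequence in the difference in signal was not tested.

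The U6 copies of the K09B11 and F54C8 loci had no thresholded summit. Of the 6 copies K09B11.11 to K09B11.16, spread over 8062 bp of chromosome IV in introns of mam-3, 3 had a candidate in the conservative ranked list. These candidates were 39.7 at K09B11.13, 6.58 at K09B11.14 and 53.7 at K09B11.16, and the other 3 had none. The 3 copies F54C8.8, F54C8.9 and F54C8.10 on chromosome III, in introns of F54C8.6, had candidates of 35.1, 48.2 and 53.9. T20D3.12 and T20D3.13 overlap head to head and share a candidate of 15.2.

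The U6 genes with a thresholded summit also shared their promoter letters. TATATAA was found in the 50 bases before the start, on the strand of the gene, in 15 of 23 U6 genes (65.2%), in 2 of the 16 genes outside the families and in no U1, U2, U4 or U5 gene, against 0.569% of all 50-base stretches of the genome. In 8 U6 genes it starts 31 bases before the gene, and 5 of these 8 had a main-list summit (62.5%, 24.5 to 91.5) and 1 more, Y17G9A.85, a summit in the other pooled list. In 7 U6 genes it starts 30 bases before the gene, and none of the 7 had a thresholded summit (upper bound 41.0%). Of the 8 U6 genes without TATATAA none had one either (upper bound 36.9%). These groups were noticed after the peaks were known and include the K09B11 cluster, whose copies also resemble each other upstream, with 77 of 80 bases shared by K09B11.12 and K09B11.13, so they are not independent. They are given as a description.

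The shorter TATA was found in that window in 17 of 23 U6 genes (73.9%) and in 6 of the 16 genes outside the families (37.5%). It was found in 4 of 14 U1, 3 of 5 U4, 1 of 12 U5 and 0 of 19 U2 genes, beside 17.2% of 50-base stretches of the genome. A match to TATATAA is also a match to TATA. AAC, 9 bases and GTC, sought in 80 bases on the strand of the gene, was found in 15 of 23 U6, 12 of 14 U1, 9 of 12 U5 and 2 of 5 U4 genes, in no U2 gene and in none of the 16 others, beside 1.15% of 80-base stretches. It began 66 to 67 bases before the start in the U6 genes, with a median of 56 bases in the U1 genes. The 5 U6 genes with a main-list summit all held it, as did 10 of the 18 without one. Among the U1 genes, mir-1831 overlaps sup-39 and T27E4.22 overlaps T27E4.12. Their matches to the element, 62 and 71 bases before the start, are those of the larger genes, at 55 and 56. The U1 count of the element therefore holds these matches more than once, and the U1 count of TATA also covers these overlapping genes. A run of 4 T was found in the 20 bases after the annotated end in 17 of 23 U6 genes and in 8 of the 16 others (50%). It was found in 2 of 12 U5 genes, 1 of 5 U4 genes and no U1 or U2 gene, beside 25.8% of 20-base stretches. Counted from the last 6 bases of the gene onward, a window chosen after the first result was seen, all 23 U6 genes had it, beside 32.2% of 26-base stretches. In that window 9 of the 16 others, 2 of 12 U5 genes, 1 of 5 U4 genes and no U1 or U2 gene had it.

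The U1 genes gave 4 members with a main-list summit at 3 places. sup-6 (WBGene00006315, chromosome II, 12944803 to 12944967, minus strand), a U1 gene first known from suppressor mutations, had 75.8 in replicate 1, 47.8 in replicate 2 and 106.0 in the main list, at rank 429. It was the only gene outside the U6 family in a thresholded list of either replicate. It lies in an intron of F58G1.7 on the same strand. T08G5.11 (WBGene00014511, chromosome V, 14028471 to 14028635, minus strand), intergenic, had candidates of 55.9 in replicate 1 and 35.1 in replicate 2 and a main-list signal of 80.4. The non-coding RNA gene T08G5.18 is annotated over it on the other strand.

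sup-39 (WBGene00006344, chromosome II, 6968394 to 6968558, minus strand), likewise a U1 gene known from suppressor mutations, had candidates of 56.1 in replicate 1 and 43.0 in replicate 2 and a main-list signal of 79.5. mir-1831 (WBGene00077724), which carries a microRNA symbol but is classed as snRNA, is a 22-base stretch inside sup-39, and the main-list summit within 100 bp of it belongs to a second, overlapping peak with a signal of 2.63 at rank 880 of 882 and a score of 1000. It is counted as a member because the annotation lists it. With mir-1831 and the nested U1 copy T27E4.22 left out, 9 of 87 genes had a main-list summit.

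One U4 gene of 5, C52E4.8 (WBGene00014291, chromosome V, 11980118 to 11980261, plus strand), had a main-list summit, with candidates of 40.02 in replicate 1 and 37.6 in replicate 2 and a pooled signal of 79.98 with a score of 936. It was not in the other pooled list. The non-coding RNA gene C52E4.14 also lies within 100 bp of the summit, and the start of snr-4, which encodes an Sm protein of the snRNP core, is 395 bp from the start of C52E4.8. F10D2.13, a U4 gene in an intron of ugt-37, had 79.1 in the other pooled list and candidates of 52.0 in replicate 1 and 23.5 in replicate 2. Its score was 910 in the other pooled list and 560 in the conservative ranked list.

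The 19 U2 genes had candidates but no thresholded summit, which allows a share of up to 17.6%. In the conservative ranked list 13 of 19 had a candidate, from 16.7 to 57.8 with a median of 46.2. R05D7.6 was the highest, at 57.8 with a score of 150, and its replicates stood at 8.18 and 31.6. W07G1.24, whose first 48 bases match a U2 gene in full and whose remainder does not, was the only gene outside the families with a thresholded peak, at 69.9 in the other pooled list, with candidates of 38.9 in replicate 1 and 29.9 in replicate 2. F35C11.9, a partial U6 copy of 95 bases with 92.8% identity over 72.6% of its length, had no candidate.

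The 12 U5 genes, 11 of them on chromosome IV and 11 in introns, likewise gave no thresholded summit (upper bound 26.5%). In 6 of 12 a candidate was present, from 19.8 to 46.2. The highest, at F07C6.5, had its summit exactly 100 bp before the start, at the edge of the window. No member had its nearest main-list summit between 100 and 500 bp away. The members just inside the limit were C52E4.8, with its summit 67 bp outside the gene, and mir-1831, at 39 bp, and the nearest beyond it was the U2 gene F08G2.9, at 1459 bp.

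Candidates, thresholded or not, were more common at these genes than over the genome. In the conservative ranked list, which holds 87796 candidates with a median signal of 22.8, 53 of 89 genes had one within 100 bp (59.6%, 48.6 to 69.8), beside 26.3% of 122-bp stretches of the genome. The shares were 15 of 23 for U6, 11 of 14 for U1, 13 of 19 for U2, 2 of 5 for U4, 6 of 12 for U5 and 6 of 16 for the other genes. The median over the 53 genes was 47.3. Of the 53, 10 were the main-list genes, and the other 43 had candidates from 6.58 to 79.1 with a median of 43.1. In replicate 1 alone 45 of 89 genes had a candidate (50.6%), beside 16.6% of stretches, and in replicate 2 alone 37 of 89 (41.6%), beside 14.3%. A total of 28 genes had no candidate in any ranked list.

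The strongest candidates at genes with no thresholded summit were at U1 genes. T27E4.12 and the truncated copy T27E4.22 that overlaps it share a candidate of 78.9. In the conservative ranked list its score was 824, next to the lowest thresholded score of 830. In the other pooled ranked list its score was 254. A candidate was seen at 46.6 with a score of 17 in replicate 2, and none within 100 bp in replicate 1. T27E4.11 had 66.4 with a score of 333, H27M09.6 had 64.1 with a score of 671, and F08H9.10, over an exon of the heat shock gene hsp-16.20, had 59.2 with a score of 383. With sup-6, sup-39, T08G5.11 and T27E4.10 (58.0), they were the 9 of 14 U1 genes with a pooled candidate stronger than that of any U2 gene.

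Replicate 1 gave the higher value at 23 of the 29 genes with a candidate in both replicates. In the thresholded list of replicate 1, 5 of 89 genes had a summit (5.62%), beside 0.171% of 122-bp stretches, and in that of replicate 2, 4 of 89 (4.49%), beside 0.149%. The 4 genes in both were W05B2.8, C28A5.7, F54D8.7 and sup-6, and R07E5.16 was the further gene in replicate 1. The other pooled list, with 1042 peaks, held 11 of 89 genes (12.4%), beside 0.329% of stretches, and 8 of these were among the 10 of the main list. Of the 10 main-list genes 9 had a candidate in each replicate, and all 9 were higher in replicate 1, by 1.06 to 1.94 times with a median of 1.59. Over the 356 thresholded peaks of replicate 1 that overlapped one of replicate 2, the median ratio was 1.24. These peaks overlapped and were thresholded in both replicates. The 9 genes were compared by their strongest candidates within 100 bp, and only 4 of them were thresholded in both, so the medians 1.59 and 1.24 are not like for like. Signals of separate lists are not on a shared scale, so the ratio describes the lists and not the amount of binding.

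**Figure D2:**
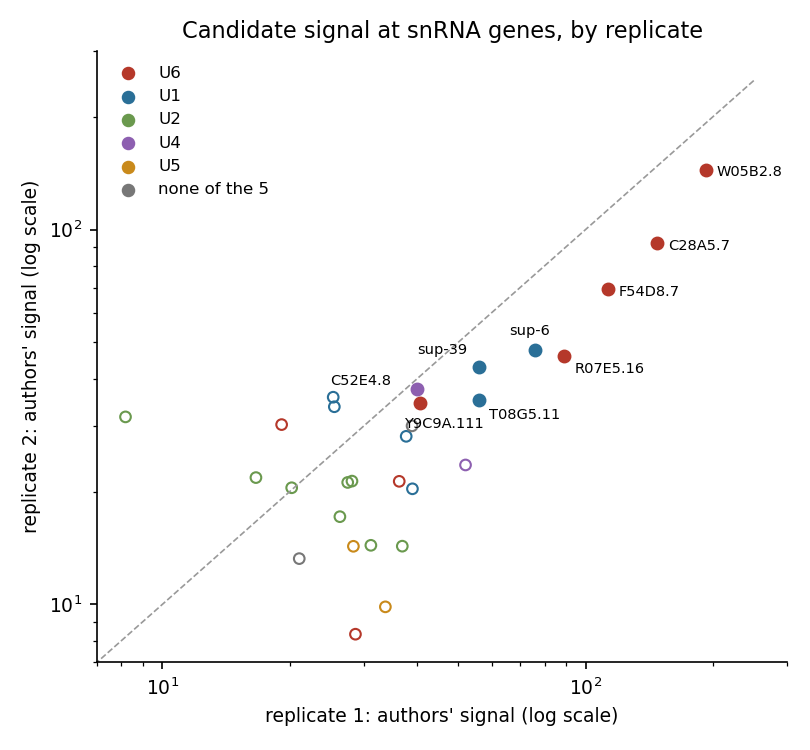
Each point is one of the 29 snRNA genes with a candidate within 100 bp in both replicates, placed by the authors' signal in replicate 1 (x axis) and replicate 2 (y axis), both on log scales, with main-list genes filled and named and the dashed line marking equal values. All 9 filled points lie below the line. The 4 genes thresholded in both replicates stand toward the upper right, but not apart. R07E5.16, thresholded in replicate 1 only, lies at 88.8 and 45.9, next to sup-6 at 75.8 and 47.8.

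In 6 of the 10 main-list genes the summit lay within 50 bp of the annotated start, among them mir-1831, nested in sup-39, at -39 bp. Only summits within 100 bp of a gene were taken, which bounds these positions. Of the 29 genes with a candidate in both replicates, 15 had the replicate summits within 50 bp of each other. Over the 10 genes its median position was 22.5 bp downstream of the start, with 3 summits upstream of the gene, 5 inside it and 2 beyond its end. In 4 of the 5 U6 genes it was within 50 bp of the start, at -8 bp in R07E5.16, 1 bp in C28A5.7, 21 bp in F54D8.7 and 24 bp in Y9C9A.111. W05B2.8 was the exception, with its summit 105 bp from the start, just past the end of the gene. In replicate 1 the summit of W05B2.8 was at 107 bp and in replicate 2 at 13 bp. The U1 summits were more spread, at 32 bp in T08G5.11, 112 bp in sup-6 and 167 bp in sup-39. That of sup-6 was at 111 bp in replicate 1 and 175 bp in replicate 2. The candidates at sup-39 had summits at 91 bp in replicate 1 and 236 bp in replicate 2. The summit of C52E4.8 was 67 bp upstream.

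**Figure D3:**
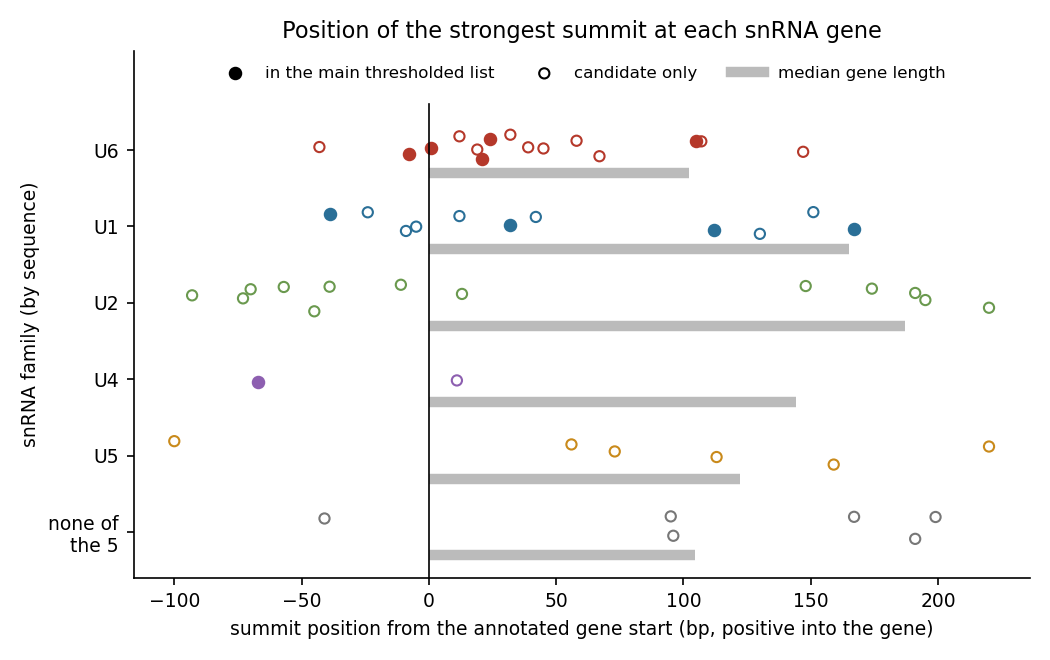
The strongest candidate summit at each snRNA gene is placed by its distance from the annotated start (x axis, bp, positive into the gene) and by family (y axis), with main-list genes filled and grey bars giving the median gene length of the family. The U6 points gather between the start and the end of the gene, while U2 points stand upstream of the start or near and beyond the end, with a single one near the start inside the gene.

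In the ranked list the families differed in where the candidates lay. Of 15 U6 candidates 10 were inside the gene, 2 upstream and 3 beyond the end. Of 13 U2 candidates 3 were inside, 7 upstream and 3 beyond the end. The U1 candidates fell inside the gene in 6 of 11 cases. Most peaks have a fixed width, 330 bp in 83.3% of the main list, with the summit at the centre, so a position carries no finer detail than the peak caller gave it.

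These positions can be set beside the share of sequence that is found at a single place in the genome. Words starting in a gene were read along the plus strand, so they run past the end of plus-strand genes but past the start of minus-strand genes. The shares per gene therefore depend on the strand. They were 7.84 to 9.80% in the minus-strand K09B11 copies and 37.3 to 45.1% in the plus-strand ones. Over the 89 genes, a median of 46.5% of the 50-base words starting in the gene were found at a single place on either strand. The median was 38.2% in U6, 56.4% in U1, 16.04% in U2, 39.6% in U4 and 67.2% in U5 genes, and 100% in the 16 others. The U2 family, with no thresholded summit, had the lowest share. In U2 genes 5.26% of words centred 43 bp into the gene were found at a single place and 78.9% of those centred 100 bp before it. The 5 U6 genes with a main-list summit had shares of 36.3 to 48.0% (median 42.2%), and the 18 without had 0 to 100% (median 37.8%). The 16 genes outside the families, with at least 83.5% of their words found at a single place, had no main-list summit. The read length and the treatment of reads that match several places are not given in the sources used here, and the part of repeated sequence in the peaks was not tested.

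**Figure D4:**
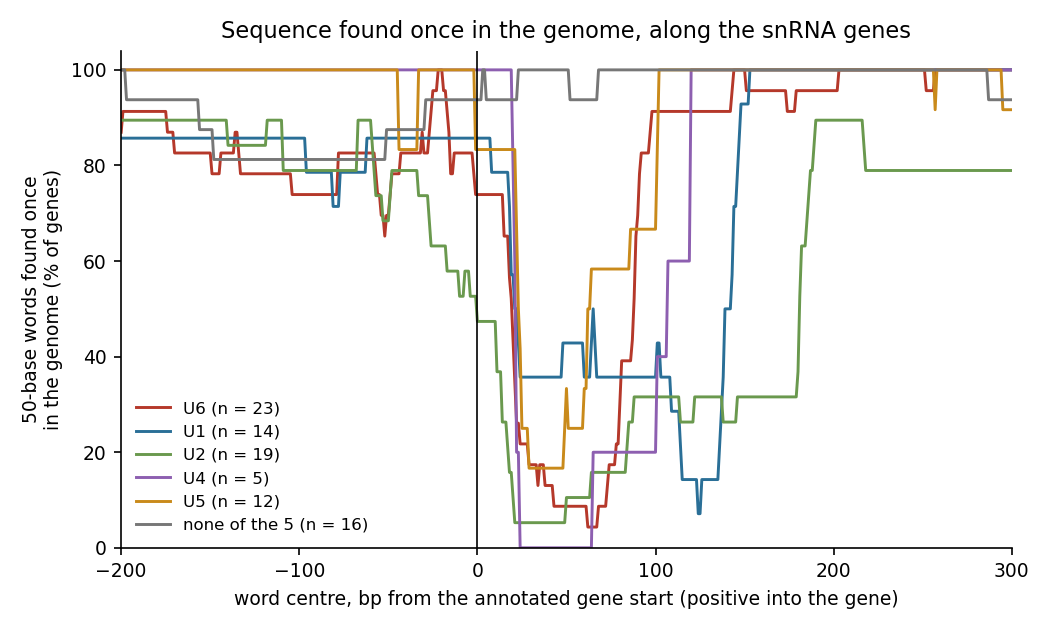
The share of genes of each family whose 50-base word at a given place is found at a single place in the genome (y axis, percent) is drawn against the centre of the word (x axis, bp from the annotated start, positive into the gene). It falls inside the genes of all 5 families, to 4.35% at 62 bp in U6 genes and to 0% in the 5 U4 genes, and stays at 81.2% or above in the 16 other genes.

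The letters GGTGTG were found on either strand within 100 bp of 1 of the 10 main-list summits at snRNA genes, that of T08G5.11. Over all 882 main-list summits 85 held them (9.64%), and over all 201-base stretches of the genome 4.53%. The letters also stand in the upstream sequences shown for F54C8.9 and F54C8.10, which had no thresholded summit. Members without a main-list summit were not searched for them as a set. None of the 10 summits had a tRNA or snoRNA gene within 100 bp. By position, 7 of the 10 genes were in introns of protein-coding genes, all on the strand of the host, and 3 were intergenic. Among all 42 intronic members, 7 of 28 on the host's strand had a main-list summit (25%, 10.7 to 44.9), against 0 of 14 on the opposite strand (upper bound 23.2%), and the intervals overlap. Both the 7 and the 28 include sup-39 and also mir-1831, which is nested in it, so the same locus counts for both. None of the 12 members over exons had one. The lists carry no strand, so they do not tell which of several overlapping genes a peak belongs to.

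Protein genes of the same pathway were looked up from a list of 85 symbols for Sm and LSm proteins, spliceosome subunits, snRNA maturation factors, the snRNA activating complex and the Integrator complex, of which 73 were found in the annotation. A main-list summit in the window that runs from 1000 bp before a start to 500 bp after it was present in 6 of 73 (8.22%, 3.08 to 17.04), beside 2.68% of nuclear protein-coding genes. snr-1, an Sm protein gene, had a summit at -387 bp from the start with a signal of 149.3, and 92.8 in replicate 1 and 61.3 in replicate 2. mog-4, which encodes a DEAH-box RNA helicase of splicing, had one at -297 bp with a signal of 124.7, and 76.1 in replicate 1 and 51.2 in replicate 2. These 2 were thresholded in both replicates.

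The related helicase gene mog-5 had a summit at -158 bp with a main-list signal of 116.2, and 73.4 in replicate 1. prp-19, for a spliceosomal ubiquitin ligase, had one at -629 bp with a signal of 124.2, and 52.7 in replicate 2. lsm-3, for a protein of the ring that binds U6 RNA, had one with a signal of 105.3, and 69.8 in replicate 1. Its position, -970 bp, is near the upstream edge of the window. The peak assigned to snr-4, at -328 bp with a signal of 79.98, is the one at the U4 gene C52E4.8. The other 5 had no annotated RNA gene within 100 bp of the summit, with PIWI-interacting RNA (piRNA) genes and pseudogenes not looked up. No summit was found at the other 67 genes, which include snpc-4, a subunit of the snRNA activating complex, and tbp-1, the TATA-binding protein.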

How the data were processed

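Peak lists of 2 ChIP-seq replicates on assembly ce11 were used as deposited. Per the file headers and the README texts deposited with them, the 4 ranked and 4 thresholded lists derive from alignments of each replicate or of both, against shared control alignments. The aligner, peak caller, versions and filters are not stated in the sources used here. Signal, as deposited, is the strength assigned to each peak, in no stated unit, and the deposited score expresses its irreproducible discovery rate (IDR), from 830 in thresholded lists. Read depth is unknown. Signals were compared within a list, except that the replicate lists were set side by side as a description.

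Python 3.11.15, pandas 2.3.3, numpy 2.4.6, scipy 1.17.1, biopython 1.88 and matplotlib 3.10.9 were used. Gene names came from RefSeq through the WormBase gene ID for all 89 genes, since 32 shared an Ensembl symbol. Families came from local alignment with single linkage, in clusters of at least 3. Words of 36, 50 and 100 bases were counted on both strands of the whole genome. Counts carry Clopper-Pearson 95% intervals. No test was run, as there is 1 group. Named genes were all members with a thresholded summit, the 5 strongest members without, their neighbours and the pathway genes with a promoter summit, plus examples chosen after their values were seen. The members and lists were chosen with earlier results of these data known. Alternatives were the other pooled list, each replicate alone, stronger peaks, other windows and merged copies, and, added after seeing the data, leaving out nested members or genes of no family, U6 by signature alone, and other promoter letters. The assignment, family and word counts were tested on simulated data.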

Additional observations from a re-analysis of the deposited data

How the results depend on the processing

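The genes with a main-list summit numbered 10 (5 U6 and 5 other, at 10 peaks). With each replicate alone they numbered 4 to 5, with 3 to 4 U6 genes, 1 other gene each and 4 to 5 peaks. Peaks at or above the median signal left 5 genes at 5 peaks, with 1 gene outside U6, and gave a median signal of 182.3 (93.2 in the main list), by construction. Summits inside the gene left 5 genes at 5 peaks, 3 of them U6 and 2 other, with a difference of shares of 10.01 points. Counted by distinct sequence, the U6 genes came to 2. The difference of shares, 14.2 points, was 18.5 in the other pooled list. The median position was 11 to 21 bp with each replicate alone and 39 bp in the ranked list. The median share of words found at a single place was 34.3% at 36 bases and 91.0% at 100 bases. TATATAA, chosen after seeing the data, was found in 19.1% of members, TATA in 34.8%. Of 70 alternative values, 47 stayed within 1.5 times (counts) or within the SD of the replicate lists and 23 moved. Only the difference of shares could be classed as reversed, and it was in 0 cases. Shares of 36- and 100-base words were entered as moved without a limit. The element AAC, 9 bases and GTC was scored against TATA, a different motif. Leaving out members with a tRNA or snoRNA gene at the summit could change nothing, as no main-list summit had one. Wider windows could not change the gene counts, since no member had its nearest main-list summit between 100 and 500 bp. The cause of changes other than fewer peaks was not tested. No paired analysis was possible because there is 1 group. The lists give no depth, so how many weak candidates more reads would bring past the threshold is unknown.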
